A study of Mus musculus with 5 samples.

Results

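Neutrophils of the mouse lung are described here as they appear in single-cell RNA sequencing of lungs that carried metastases. Their members are the cells to which the authors' deposited annotation gives the cell type Neutrophils, 2196 of 22118 cells with an assigned type, or 9.93%. Neither count includes doublets or cells of unknown type, as the authors named them. Female BALB/c mice were injected by vein either with tumor-secreted factors (TSF), a medium conditioned by pieces of mammary tumors, or with control medium (CM), which was incubated without tumor. After 3 injections per week for 3 weeks, all mice of both treatments were given 25000 CD90.1-expressing 4T1 cells, a mouse mammary carcinoma line, by vein. Lungs were taken 11 days later, from mice of 10 weeks of age, or 16 days later, from mice of 11 weeks. No lung without cancer cells was among the samples analysed, so every group carried injected 4T1 cells. The groups differed in medium and day, and age differed with day. Each group also came from its own mice, which cannot be told apart from medium and day.

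Neutrophils are short-lived phagocytes that are released from the bone marrow and that gather in the capillaries of the lung in large numbers. Granulocyte colony-stimulating factor, encoded by Csf3, drives their production through its receptor Csf3r, and chemokines such as Cxcl1 and Cxcl2 recruit them through the receptor Cxcr2. Mature neutrophils hold little RNA and few mitochondria, so that in droplet sequencing they lie close to the minimum number of molecules asked of a cell. The calprotectin subunits S100a8 and S100a9 are among their most abundant transcripts.

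There were 5 libraries, each from the pooled lungs of 3 mice, with libraries a and b for TSF at day 11 and 1 library for each other group. After enzymatic dissociation red blood cells were lysed, and no sort of the cells is described before library preparation. The study's methods describe perfusion of lungs through the right ventricle before dissociation. Neutrophils left in the vessels and those of the tissue cannot be told apart in such a suspension. The libraries held 3567 to 5113 annotated cells and 13240822 to 21451787 UMIs (unique molecular identifiers, counts of distinct RNA molecules). Libraries a and b may come from 1 pool and were counted as 1 sample, so each group had 1 sample, differences between groups could not be set against replicates, and none was tested. Intervals are at the 95% level and cover counting error only, not differences between mice. Gene values of single neutrophils were not analysed here, so the label could not be checked against S100a8, S100a9, Csf3r, Cxcr2 and Retnlg. Among the libraries, 1 barcode was shared by neutrophils, between TSF library a of day 11 and the TSF library of day 16.

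The first question was how many of the lung cells were neutrophils in each group. In the TSF library of day 16 neutrophils made up 28.7% of annotated cells, with 1407 of 4896 cells (interval 27.5 to 30.0%). In the CM library of day 16 they made up 5.69%, with 203 of 3567 cells (interval 4.95 to 6.5%). At day 11 they made up 4.01% in the CM library, with 150 of 3738 cells (interval 3.41 to 4.69%). The TSF libraries of day 11 held 4.26% in library a, with 218 of 5113 cells (interval 3.73 to 4.85%), and 4.54% in library b, with 218 of 4804 cells (interval 3.97 to 5.17%). The TSF library of day 16 thus stood alone, and the intervals of the 3 libraries of day 11 overlapped. It contributed 22.1% of all annotated cells and 64.1% of all neutrophils.

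The share of neutrophils at day 16 was 5.05-fold higher in the TSF library than in the CM library (interval 4.36 to 5.88). At day 11 the ratio of TSF to CM was 1.1 (interval 0.908 to 1.33), so a difference was not detectable at this depth. Within the CM arm the share was 1.42-fold higher at day 16 than at day 11 (interval 1.14 to 1.76), whereas within the TSF arm it was 6.53-fold higher (interval 5.87 to 7.30). Between the TSF libraries of day 11 no difference beyond sampling noise was found, with a ratio of 1.06 (interval 0.878 to 1.29) and a two-sided p of 0.524 by Fisher's exact test, which compares these 2 libraries only. When immune cells alone formed the denominator, neutrophils made up 45.4% of them in the TSF library of day 16 and 11.1% in the CM library of day 16. The same share was 7.74% in the CM library of day 11 and 8.58% and 9.10% in TSF libraries a and b. Basophils, the other granulocytes of the annotation, were counted at 18 cells in the TSF library of day 16 and at 11 to 19 cells in the other libraries.

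**Figure D1:**
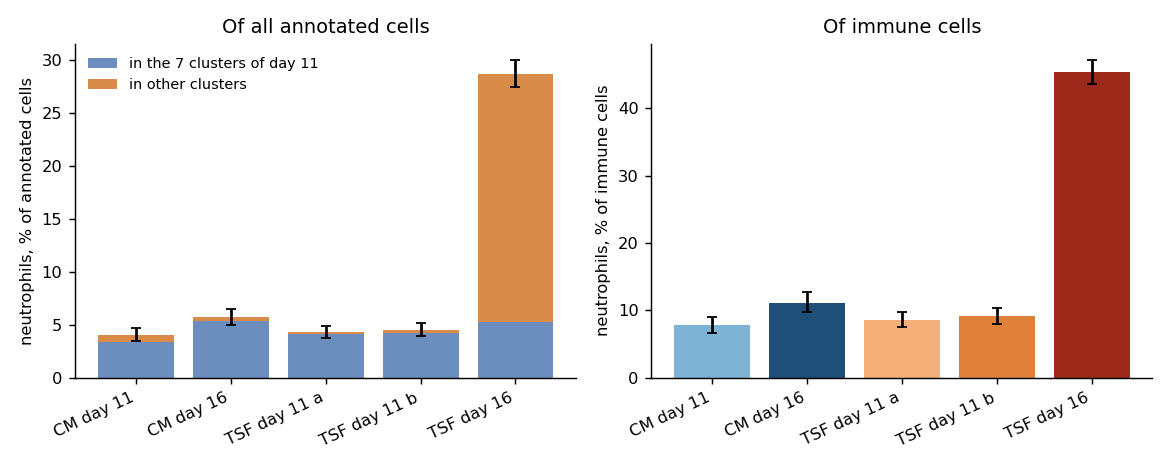
Neutrophils as percent of all annotated cells (left) and of immune cells (right) in each of the 5 libraries, with exact 95% intervals that cover counting error only. In the left panel the bars are split into the 7 fine clusters that hold most neutrophils of day 11 and all other clusters. The TSF library of day 16 reaches 28.7% and 45.4%, and its part within the 7 clusters, 5.29%, is close to the 5.30% of CM at day 16.

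A share depends on all other cells of a library, so neutrophils were also counted per cell of each of the 20 other annotated types. At day 16 the ratio of TSF to CM lay above 1 with its interval for 19 of 20 types, with a median of 5.73. It ranged from 1.45 per cancer cell (interval 0.909 to 2.24) to 10.8 per ciliated cell (interval 4.27 to 28.6), the latter from only 9 and 14 ciliated cells. Per endothelial cell, the most numerous type of the CM library, TSF had 2.16 neutrophils and CM had 0.234, a ratio of 9.23 (interval 7.69 to 11.1). Per T cell the counts were 2.70 and 0.325, a ratio of 8.31 (interval 6.87 to 10.1). Among monocytes and macrophages the ratios differed, with 3.35 per monocyte (interval 2.45 to 4.55), 3.02 per cell of the type the authors named M2 Macro (interval 2.16 to 4.20), 5.05 per cell of M1 Macro/DC (interval 3.23 to 7.83) and 7.96 per alveolar macrophage (interval 6.14 to 10.3). All these ratios share the neutrophil counts and are not independent of each other.

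At day 11 the interval included 1 for 15 of 20 types. It lay above 1 for 2 types, the alveolar type 1 cells (ratio 1.42, interval 1.02 to 1.95) and M2 Macro (1.41, interval 1.03 to 1.92). It lay below 1 for 3 types, with 0.613 per NK cell (interval 0.445 to 0.841), 0.569 per pericyte (interval 0.385 to 0.830) and 0.233 per cancer cell (interval 0.0812 to 0.547). The CM library of day 11 held 6 cancer cells and 25 neutrophils for each of them. There were 6.81 and 5.07 neutrophils per cancer cell in TSF libraries a and b, and at day 16 there were 7 for CM and 10.1 for TSF. Among the 20 types, cancer cells were therefore the only one for which neutrophils per cell at day 16 did not differ beyond counting error. That ratio rests on 29 cancer cells of CM and 139 of TSF, and its interval of 0.909 to 2.24 is wide.

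**Figure D2:**
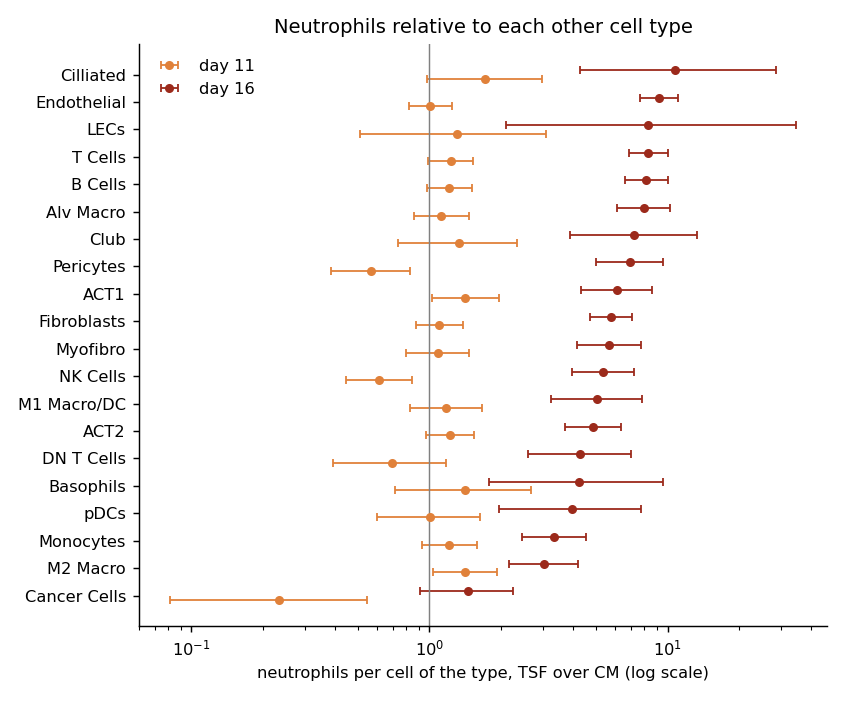
Neutrophils per cell of each other annotated type, as the ratio of TSF to CM on a log scale, with day 16 in dark red and day 11 in orange (pooled counts of libraries a and b). Bars are exact 95% intervals for counting error, and the vertical line marks a ratio of 1. At day 16 the interval lies above 1 for 19 of 20 types, and that of cancer cells spans it, whereas most points of day 11 lie near 1.

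The RNA content of the neutrophils was compared next. The median neutrophil held 1142 UMIs in the CM library of day 11, 1299 in the CM library of day 16, 1052 in library a and 1078 in library b of TSF at day 11, and 1694 UMIs in TSF at day 16. It was the lowest of all types with at least 20 cells in 4 libraries, and in the TSF library of day 16 it was the third lowest, above B cells (1543 UMIs) and NK cells (1569 UMIs). The richest neutrophil of the 4 other libraries held 3362 to 5959 UMIs, from 150 to 218 cells per library. That of the TSF library of day 16 held 29414 UMIs and 4754 genes, from 1407 cells. A larger number of cells can by itself give a higher maximum. Whether this cell was a single neutrophil was not tested. Cells with at least 2000 UMIs made up 39.8% of neutrophils in the TSF library of day 16 (interval 37.2 to 42.4%), against 7.88% in CM at day 16, 8.0% in CM at day 11 and 2.75% and 1.38% in TSF libraries a and b. Of the neutrophils of the TSF library of day 16, 31 (2.20%) held at least 10000 UMIs. In the CM library of day 16 there were 0 of 203, which allows a share of up to 1.48% by the limit used for counts of 0. The exact interval reached 1.80% in CM and ran from 1.50 to 3.11% in TSF at day 16, so the exact intervals overlapped.

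The other cells of the library did not differ in the same direction. Apart from neutrophils, 6 types had at least 100 cells in every library (alveolar type 2 cells, alveolar macrophages, B cells, endothelial cells, fibroblasts and T cells). For these the median UMIs of the TSF library of day 16 were 0.793 to 0.916 times those of the CM library, whereas for neutrophils the ratio was 1.30. At day 11 the ratio was 0.90 to 0.973 for the 6 types and 0.933 for neutrophils. The median number of genes per neutrophil was 456.5 for CM and 419.5 and 428.5 for TSF (a and b) at day 11, and 581 for CM and 636 for TSF at day 16. This was the lowest of the types with at least 20 cells in all 5 libraries.

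Cells of equal depth gave another order. Among neutrophils with 1500 to under 2000 UMIs, the median number of genes was 637 in the TSF library of day 16 (277 cells) and 660.5 in the CM library of day 16 (44 cells). It was 546 in the CM library of day 11 (17 cells) and 520.5 and 560 in libraries a and b of TSF (22 and 27 cells). Among neutrophils under 1000 UMIs the medians were 441 for TSF and 464 for CM at day 16, and 383 to 407 in the libraries of day 11. At matched depth both libraries of day 16 thus lay above the 3 libraries of day 11, and TSF did not lie above CM.

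The authors kept cells with at least 800 UMIs, so neutrophils with less RNA are not counted in any library. Neutrophils under 1000 UMIs made up 43.1% and 41.3% in TSF libraries a and b, 30.0% in CM at day 11, 13.3% in CM at day 16 and 10.2% in TSF at day 16. With at least 2000 UMIs asked of every cell, neutrophils made up 19.8% of the TSF library of day 16, 0.681% of the CM library of day 16, 0.566% of the CM library of day 11, and 0.223% (a) and 0.115% (b) of those of TSF at day 11. The ratio of TSF to CM at day 16 was then 29.1, and at day 11 it was 0.299 (interval 0.112 to 0.776) from 9 and 12 neutrophils. The size of the difference in share is thus tied to the UMI minimum, and how many neutrophils lay under 800 UMIs was not analysed here.

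**Figure D3:**
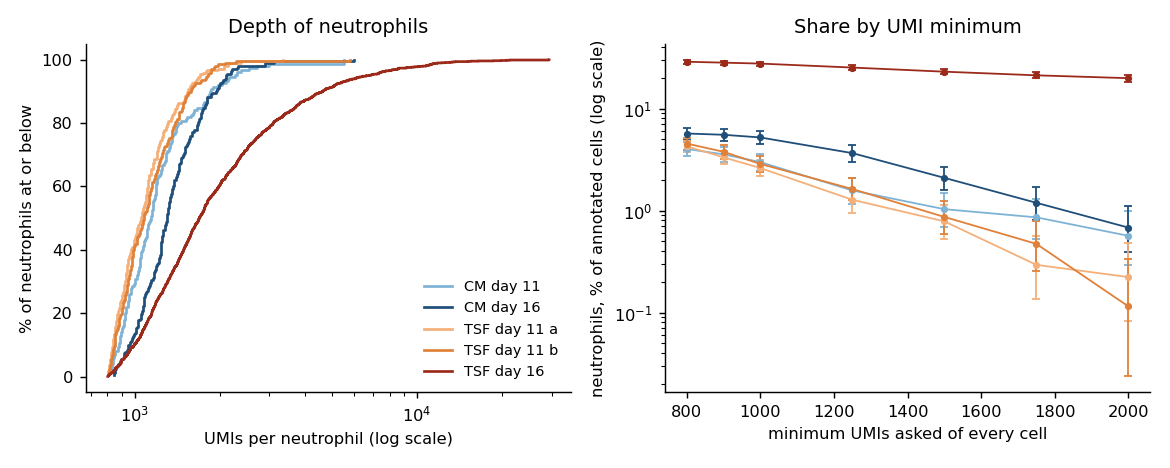
UMIs per neutrophil as cumulative percent of each library's neutrophils on a log scale (left), and the share of neutrophils when a higher UMI minimum is asked of every cell, on a log scale with exact 95% intervals (right). The curve of the TSF library of day 16 lies to the right of the others, with 39.8% of its neutrophils at 2000 UMIs or more. Its share goes from 28.7% to 19.8% over the minima shown, while the other libraries end under 1%.

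Neutrophils had the lowest median percent of mitochondrial UMIs of the types with at least 20 cells in all 5 libraries. Summed over cells, mitochondrial genes gave 0.146 to 0.493% of the UMIs of neutrophils and 2.65 to 2.87% of those of all other cells. The percent was highest in the TSF library of day 16 (0.493%), and it was 0.146% in CM at day 16, 0.182% in CM at day 11, and 0.329% and 0.397% in TSF libraries a and b. Few cells carried much of this, since neutrophils over 1% mitochondrial UMIs, 17 and 13 cells in libraries a and b, gave 82.2% and 88.0% of the mitochondrial UMIs there and 39.6% in TSF at day 16 (109 cells). Without such cells the percent was 0.326% in TSF at day 16 and 0.0513 to 0.0803% in the other libraries. Not a single mitochondrial UMI was found in 21.6% of neutrophils of the TSF library of day 16 (interval 19.5 to 23.9%), against 74.4% in CM at day 16 (interval 67.8 to 80.2%), 55.3% in CM at day 11 and 77.5% and 72.5% in TSF libraries a and b. Depth alters such a share, but under 1000 UMIs it was still 53.8% for TSF (77 of 143 cells) and 96.3% for CM (26 of 27 cells) at day 16. In the window of 1500 to under 2000 UMIs it was 17.7% for TSF and 68.2% for CM at day 16. The difference between TSF and CM at day 16 was therefore present at matched depth as well. All these counts were taken after the authors' correction for free RNA. By the study's methods its strength was estimated for each library, raised by a factor of 2 and then adapted to each cell's UMI total. The effect of this correction on UMIs per neutrophil, on mitochondrial percents and on the share without a mitochondrial UMI was not tested.

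The neutrophils were then followed by the fine clusters of the authors, which they drew on the UMAP of all cells, a map on which like cells lie near each other. Of 169 fine clusters with cells in these libraries, 15 held neutrophils. Since these clusters were built with the same cells, their sizes are a description, and with 1 library per group a cluster that comes mostly from 1 library may reflect that library rather than a kind of cell. In the CM library of day 11 neutrophils were spread over clusters 26 (18.7%), 29 (16.7%), 87 (16.0%), 74 (12%) and 10 (11.3%). TSF libraries a and b had most of theirs in clusters 29 (28% and 16.1%), 87 (24.8% and 25.2%) and 26 (20.2% and 22.5%). In the CM library of day 16, clusters 10 (44.3%) and 26 (31.0%) led, and clusters 29 and 87 held 3.45% each.

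The TSF library of day 16 had a different set of leading clusters, with 37 (19.4%), 47 (16.6%), 83 (14.4%) and 88 (13.7%). Clusters 37, 47, 83, 88, 114, 116 and 180 each drew more than 90% of their neutrophils from this library. They held 77.0% of its neutrophils, against 16.0% in CM at day 11, 4.43% in CM at day 16 and 1.83% and 4.59% in TSF libraries a and b. The library gave 64.1% of all neutrophils. These clusters were picked by their share from it, so this contrast follows from the choice and is a description only. Their depth varied, with a median of 5200 UMIs and 1078 genes per neutrophil in cluster 83, of 2553 UMIs and 745 genes in cluster 37, and of 1290 UMIs and 563 genes in cluster 47. They thus included neutrophils of low as well as of high RNA content.

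**Figure D4:**
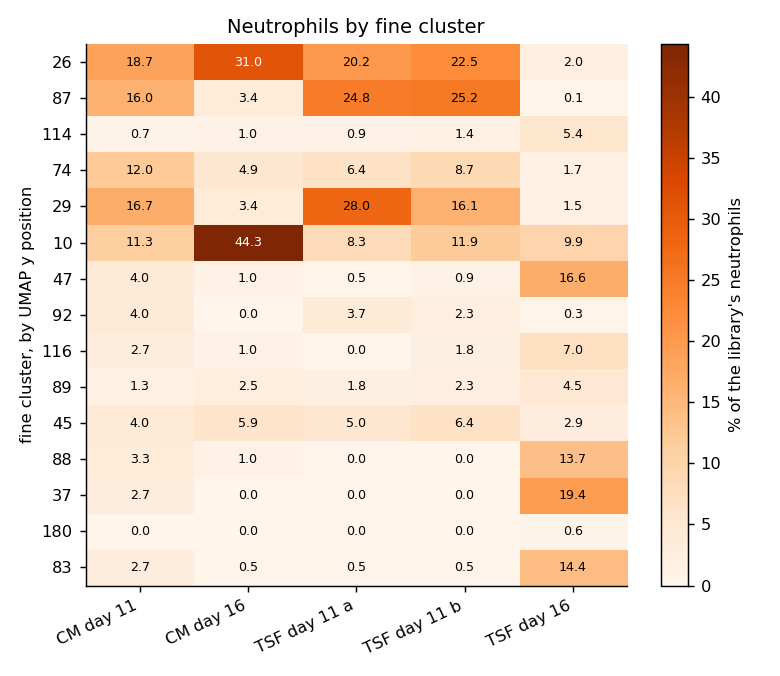
Percent of each library's neutrophils in each of the 15 fine clusters, ordered from low (top) to high (bottom) median position on the y axis of the UMAP. Clusters 26, 87, 29 and 10 hold most neutrophils of the CM libraries and of the TSF libraries of day 11, whereas 37, 47, 83 and 88 lead in the TSF library of day 16.

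For a choice among clusters that does not use the counts of day 16, clusters were chosen from the libraries of day 11 alone. They were the fewest that hold 90% of the neutrophils of those libraries. All clusters had been built with the cells of day 16 as well, so the split is a description and not independent of day 16. These were the 7 clusters 10, 26, 29, 45, 74, 87 and 92. They held 82.7% of the neutrophils of CM at day 11, 96.3% and 93.1% of those of TSF libraries a and b, and 93.1% of those of CM at day 16, but 18.4% of those of TSF at day 16. As a share of all annotated cells, neutrophils of these 7 clusters made up 5.29% of the TSF library of day 16 (259 cells) and 5.30% of the CM library of day 16 (189 cells), a ratio of 0.998 (interval 0.825 to 1.21). Per annotated cell that is not a neutrophil the ratio was 1.32 (interval 1.09 to 1.6). Neutrophils outside the 7 clusters made up 23.4% of the TSF library of day 16 (1148 cells) and 0.393% of the CM library of day 16 (14 cells), a ratio of 59.7 (interval 35.5 to 110). Most of the difference in share at day 16 thus lay in neutrophils outside the 7 clusters that held most neutrophils of day 11. Outside them lay 26 neutrophils of CM at day 11 (0.696% of annotated cells) and 8 and 15 of TSF libraries a and b (0.156% and 0.312%).

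The split was not limited to neutrophils of high RNA content. Under 1000 UMIs, the 7 clusters held 38.5% of the neutrophils of the TSF library of day 16 and 96.3% of those of the CM library of day 16. In the window of 1500 to under 2000 UMIs they held 14.1% and 90.9%. Within the 7 clusters the median neutrophil held 1221 UMIs in TSF and 1299 UMIs in CM at day 16, so in these clusters TSF did not lie above CM in depth. In the 7 clusters drawn mostly from the TSF library of day 16, that library's median was 1921 UMIs.

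For a comparison of whole libraries, the overlap of 2 libraries was taken as the sum over fine clusters of the smaller of the 2 percents. Neutrophils of TSF and CM at day 16 overlapped by 25%. The 6 other types with at least 100 cells in every library overlapped by 75 to 89.7% between the same libraries, with a median of 83.5%. Libraries a and b overlapped by 86.7% for neutrophils and by 86.9 to 95.8% for the 6 types. Neutrophils of CM at day 11 overlapped by 76.6% and 82.3% with those of TSF libraries a and b, and by 51.3% with those of CM at day 16. For neutrophils under 1500 UMIs the overlap of TSF and CM at day 16 was 39.6%. Between TSF and CM at day 16 the neutrophils thus stood apart by more than any of the 6 other types did. Low overlap between other libraries was not particular to neutrophils. CM at day 16 overlapped with CM and TSF libraries a and b of day 11 by 36.5%, 32.2% and 29.8% for alveolar macrophages. For neutrophils these were 51.3%, 49.0% and 57.8%. TSF at day 16 overlapped with the day 11 libraries by 43.8 to 48.8% for alveolar macrophages and by 20.5 to 35.7% for neutrophils.

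The positions on the UMAP, from which the clusters were drawn, are given for the same cells and are not a separate result. The median y coordinate, which has no unit, was 0.454 for TSF at day 16 and 0.383 to 0.396 in the other libraries, and the median x coordinate was 1.554 for TSF at day 16 and 1.564 for CM at day 16, against 1.592 to 1.605 at day 11. Within the TSF library of day 16 the y coordinate went with depth, with a Spearman correlation of 0.773 with UMIs over 1407 cells, against 0.247 to 0.393 in the other libraries over 150 to 218 cells. These are descriptions over cells of 1 library that share their preparation, and map distances carry no scale.

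**Figure D5:**
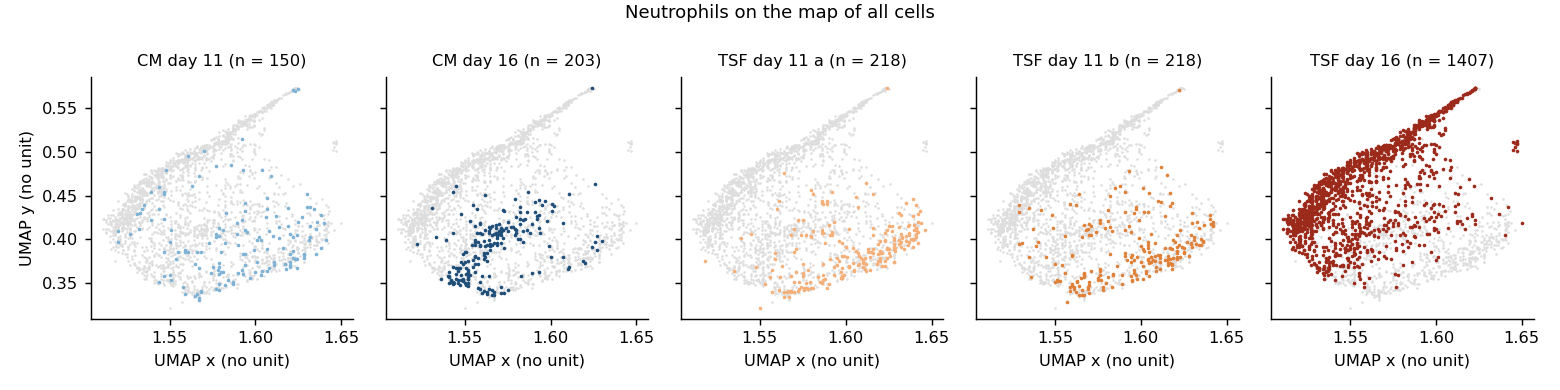
Neutrophils of each library in colour over all 2196 neutrophils in grey, on the authors' UMAP (axes without unit). Neutrophils of day 11 lie mainly along the lower right edge, those of CM at day 16 at the lower left and centre, and those of TSF at day 16 along the left and upper edge, with a median y of 0.454 against 0.394 in CM at day 16.

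Doublets bear on neutrophils of high depth. In the sub-clusters of neutrophils the authors set aside 62 cells as doublets, with 26 in the TSF library of day 16 (1.81% of the cells sub-clustered, interval 1.19 to 2.65%), 6 in CM at day 16 (2.87%, interval 1.06 to 6.14%), 7 in CM at day 11 (4.46%) and 10 and 13 in libraries a and b of TSF at day 11 (4.39% and 5.63%). Their median depth was 2261 to 3028 UMIs. The share set aside was thus not higher in the TSF library of day 16 than in the other libraries. The study's methods describe removing mainly clusters with mixed markers of different cell types. Pairs of neutrophils would not show such a mix, so they need not be among the 62. The number of such pairs was not analysed here. Cluster 114, one of those drawn mostly from TSF at day 16, held 32 of the 62 beside its 84 neutrophils, with 13 from that library and 19 from the others. Cluster 26 held 14, and clusters 37 and 83 held none. With these doublets counted as neutrophils the ratio of TSF to CM at day 16 was 4.98.

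Gene values were deposited for the cancer cells of day 16, with 139 cells of the TSF library and 29 of the CM library, as the authors' mean CP10k (a gene's UMIs per 10000 of its cell) and the number of cells with a UMI. They show the ligands that act on neutrophils and any neutrophil transcripts counted in cancer cells. All coordinates are on GRCm38. Csf3, the gene of granulocyte colony-stimulating factor (ENSMUSG00000038067, chromosome 11, 98701263 to 98703629, plus strand), had a mean of 5.39 CP10k in TSF and of 1.63 CP10k in CM. Of 139 TSF cells 99 held a UMI of Csf3 (71.2%, interval 62.9 to 78.6%), as did 16 of 29 cells of CM (55.2%, interval 35.7 to 73.6%). The levels differed between the libraries while the intervals of the shares overlapped.

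The ligands of Cxcr2 lie together on chromosome 5. Cxcl1 (ENSMUSG00000029380, 90891241 to 90893115, plus strand) had 5.26 CP10k in TSF and 4.74 in CM, and 86 cells of TSF (61.9%, interval 53.3 to 70.0%) and 13 of CM (44.8%, interval 26.5 to 64.3%) held a UMI. Cxcl2 (ENSMUSG00000058427, 90903871 to 90905938, plus strand) had 1.73 CP10k in TSF and 0.182 in CM, with UMIs in 34 cells of TSF (24.5%, interval 17.6 to 32.5%) and 5 of CM (17.2%, interval 5.85 to 35.8%). Cxcl5 had 0.382 CP10k in TSF and 0.0141 in CM, from 23 TSF cells (16.5%) and 1 CM cell (3.45%). Cxcl3 had a UMI in 2 cells of TSF and none of CM, and Ppbp was at 0 in both libraries. For each of the 5 ligands with a UMI, Csf3 included, the mean CP10k was thus higher in the TSF cells, as it was for 50.4% of all 14735 genes with a UMI in either library, and for none did the intervals of the shares lie apart. Per cell with a UMI, Cxcl1 was lower in TSF (8.51 CP10k) than in CM (10.6 CP10k), whereas Csf3 was higher (7.57 and 2.95 CP10k). The sequences of Cxcl1, Cxcl2 and Cxcl3 resemble each other, and how reads that match more than one of them were counted was not examined.

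Transcripts that mark neutrophils were rare in cancer cells. S100a8 was seen in 2 TSF cells, S100a9 in 4, the receptor Csf3r in 7, the receptor Cxcr2 in 10 and the resistin-like gene Retnlg in 2, of 139 TSF cells. Each of the 5 was seen in no CM cell, where 0 of 29 cells allows a share of up to 10.3% with a UMI. Of all 14735 genes with a UMI in either library, 19.6% were seen in a TSF cell and in no CM cell, and of the 4367 genes seen in 1 to 10 TSF cells it was 63.0%, so that with 29 CM cells an absence there is common among rare genes. S100a9 (ENSMUSG00000056071, chromosome 3, 90692632 to 90695721, minus strand) had a mean of 0.685 CP10k over the TSF cells, which is 23.8 CP10k per cell with a UMI. S100a8 had 20.9 CP10k per cell with a UMI, against 0.573 for Csf3r, 0.523 for Cxcr2 and 1.04 for Retnlg. The mean over cells with a UMI was thus higher for the calprotectin genes than for the receptors, from 2 and 4 cells whose single values were not analysed here. By the study's methods, counts were corrected for free RNA before cancer cells were compared. Neutrophils also made up 28.7% of the TSF library and 5.69% of the CM library. The effect of either on these counts was not tested. The source of these UMIs was not tested, and a cell type to serve as background was not analysed here.

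Of 9 granule genes, 7 were seen in no cancer cell of either library, beside 38.0% of all 23771 genes of the table. They were Ltf, Camp, Ngp, Mmp8, Elane, Mpo and Prtn3, which encode proteins of the neutrophil granules. In the counts left after the correction for free RNA, 0 of 139 cells allows a share of up to 2.16%. Lcn2, the gene of lipocalin 2, which carcinoma cells also express, had 10.4 CP10k in TSF and 5.75 in CM with UMIs in 92 of 139 cells of TSF (66.2%, interval 57.7 to 74.0%) and 10 of 29 of CM (34.5%, interval 17.9 to 54.3%). These intervals lie apart, with TSF above CM, as they did for 0.787% of the 14735 genes. Mmp9, the gene of a gelatinase, had 0.400 CP10k in TSF and 0.243 in CM, in 48 and 5 cells. Among genes of other cells, Ptprc was seen in 4 TSF cells, Cd3e in 3, Cd79a in 1 cell of each library and Sftpc in none, whereas Epcam, a gene of epithelial and carcinoma cells, was seen in 95 TSF cells (68.3%, interval 59.9 to 76.0%) and 8 CM cells (27.6%, interval 12.7 to 47.2%), with 1.28 and 0.195 CP10k. The intervals of Epcam lie apart as well. The median cancer cell held 26615 UMIs in TSF and 27679 in CM, so the median depths lay close while the numbers of cells did not.

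The authors' deposited gene table also marks the 1000 of 23771 genes that they used as highly variable to build the map and the clusters. All 5 markers of neutrophils were among them, as were 7 of the 9 granule genes (all but Elane and Mpo) and 4 of the 6 ligands (all but Cxcl5 and Ppbp). Mitochondrial and ribosomal protein genes were left out of that choice by the authors. The clusters of the neutrophils thus drew on the named genes, and which of them set the clusters of TSF at day 16 apart was not analysed here.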

How the data were processed

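Lungs were processed by the authors with a 10x Genomics single-cell kit for 5' ends. Reads were mapped to mm10 (GRCm38.p6 plus the CD90.1 reporter) with Cell Ranger, and counts were corrected for free RNA with a customised SoupX. The submitters' processing notes also name Seurat 4.1.0. The deposited cell table gives UMI counts per cell after that correction, the number of genes, the percent of mitochondrial UMIs, UMAP coordinates (a score without unit), clusters, and the cell class and type that the authors assigned by hand. Its lowest values were 800 UMIs and 202 genes, and its highest mitochondrial percent was 9.99. A further 2 libraries of the table belong to none of the samples analysed here and were not used. For cancer cells of day 16 the deposited signal is the authors' mean CP10k (UMIs of a gene per 10000 of its cell), beside the number of cells with a UMI. Fold changes, p-values and ranks of the authors' own comparison in that table, and their gene set table, were not used.

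Neutrophils were taken from the cell type column. Shares have exact Clopper-Pearson intervals and ratios of shares exact conditional intervals, both tested on simulated data, and for the mean of libraries a and b the interval comes from their pooled counts. Fisher's exact test compared libraries a and b. A count of 0 was given an upper limit of 3 counts of the total. UMIs without replicate libraries do not allow a test between groups, so none was made. No cell was thinned, since that needs the matrix, and windows of UMIs were used instead. Coordinates came from GENCODE, on GRCm38. Alternatives covered the denominator, UMI and mitochondrial limits and either library of TSF at day 11. Named genes were 5 neutrophil markers, 9 granule genes, 6 ligands and 5 genes of other cells, all reported. The members, gene lists and tests were chosen with earlier results of these data known. Calculations used scipy 1.17.1, pandas 2.3.3 and numpy 2.4.6 under Python 3.11.15, and figures matplotlib 3.10.9.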

Additional observations from a re-analysis of the deposited data

Results flagged for a closer look

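Of 41 measures looked at, 18 lay on one side of CM in both TSF libraries of day 11 and on the other side of CM in the TSF library of day 16. The rule used direction only, without a minimum size, and libraries a and b may come from 1 pool. How many measures would meet it by chance was not worked out, so the count of 18 is not a result. With 1 sample per group, none of these differences between days was tested, and many of the 18 share the same cells.

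Depth was one such group. The median neutrophil of the TSF library of day 16 held 395 more UMIs and 55 more genes than that of CM at day 16, while TSF libraries a and b lay under CM at day 11 in both measures. The lower UMIs at day 11 were not particular to neutrophils. By the mean of libraries a and b, the ratio of TSF to CM was 0.933 for neutrophils. It was 0.90 to 0.973 for the 6 other types with at least 100 cells in every library. The share of neutrophils with at least 2000 UMIs was higher by 31.9 percentage points at day 16 and lower at day 11 (2.75% and 1.38% against 8.0%). The share without a mitochondrial UMI had a difference of TSF minus CM of -52.8 percentage points at day 16 and was higher in TSF at day 11.

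Clusters were another. The share of neutrophils in the 7 clusters of day 11 had a difference of TSF minus CM of -74.7 percentage points at day 16, and it was higher in TSF at day 11. By single cluster the difference at day 16 was -29.0 percentage points for cluster 26, -3.31 for cluster 87 and -3.00 for cluster 45, and TSF lay above CM in each at day 11. For cluster 45 the order at day 11 came from 6 neutrophils of CM and 11 and 14 of libraries a and b. In cluster 26 the shares of day 11 lay close, with 18.7% in CM and 20.2% and 22.5% in libraries a and b. They came from 28, 44 and 49 neutrophils. In cluster 87 the difference at day 16 came from 2 neutrophils of TSF and 7 of CM. The difference at day 16 was 19.4 for cluster 37, 15.6 for cluster 47, 13.9 for cluster 83, 12.7 for cluster 88 and 5.98 for cluster 116. In each of these TSF lay under CM at day 11, from at most 6 neutrophils of CM at day 11. For cluster 92 the difference was 0.284, from 4 neutrophils of TSF and 0 of CM at day 16.

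Neutrophils per cell of another type differed in this way for 4 types. TSF minus CM at day 16 was 3.12 neutrophils per cancer cell, 21.6 per DN T cell, 8.06 per NK cell and 11.9 per pericyte, and both TSF libraries lay under CM at day 11 for each. For cancer cells the ratio at day 16 had an interval of 0.909 to 2.24, and for DN T cells that of day 11 had an interval of 0.395 to 1.18, so those directions were not resolved.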

How the results depend on the processing

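The ratio of TSF to CM at day 16 in the share of neutrophils (5.05) was above 1 in 10 of 11 alternatives. It was 4.08 among immune cells, 6.72 per non-immune cell, 11.0 and 29.1 with at least 1500 and 2000 UMIs, and, in settings chosen after seeing the data, 59.7 outside and 0.998 within the 7 clusters of day 11, which are parts of the same count. Those clusters had 1.32 per cell that is not a neutrophil. The ratio of day 11 (1.1) was 0.799 and 0.299 with at least 1500 and 2000 UMIs, and 1.06 and 1.13 with library a or b alone. CM at day 16 over day 11 (1.42) was 2.03 with at least 1500 UMIs and 1.2 (interval 0.534 to 2.79) with at least 2000 UMIs. TSF at day 16 over day 11 (6.53) was 5.14 among immune cells, 8.93 per non-immune cell, 10.1, 27.8 and 117 with at least 1000, 1500 and 2000 UMIs, and 6.33 to 6.74 with 1 library of day 11 left out. Median UMIs of TSF over CM at day 16 (1.30) were 1.35 with at least 1000 UMIs and 1.40 relative to the other cells. Median genes (1.1) were 1.12 relative to the other cells and, in a setting chosen after seeing the data, 0.964 at 1500 to under 2000 UMIs. The minimum of 800 UMIs limits every share, since neutrophils lie close to it. No paired analysis was possible because each group had 1 pool of mice.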
